A study of Mus musculus with 60 samples.

Results

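Naive CD8 T cells that lack Sh2b3 were compared before and after 24 h of stimulation through the T cell receptor and CD28. All cells came from the spleens of NOD mice that carry the OT-I T cell receptor transgene and were enriched by negative selection. The resting group (0 h, 6 libraries) was knockout, Sh2b3-/-, and received no stimulus. The stimulated group (24 h, 5 libraries) was the same genotype after plate-bound anti-CD3 at 10 µg/mL with soluble anti-CD28 at 5 µg/mL. Libraries were included if they were knockout at 0 h or 24 h and belonged to one of the 2 sets of library numbers that hold both times, and 11 of the 60 libraries of the series met this rule. Set C supplied 4 libraries at 0 h and 3 at 24 h, and set B supplied 2 at each time. The fit carried the set as a term. Wild-type libraries of the same strain, transgene, sets and times (6 at 0 h and 5 at 24 h) served for the test of genotype by time and for the levels set beside those of the knockout. The labels do not say whether the libraries of a group came from separate mice, so the p-values measure the spread between these libraries, which may be technical. They do not give the design of the Sh2b3 allele or the kit used for each library either, and 24 h replicate 4 is titled "KO" with no gene named.

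Sh2b3 encodes LNK, an adaptor protein that binds JAK kinases and cytokine receptors and restrains their signalling. Engagement of the T cell receptor with CD28 costimulation switches on immediate early transcription factors within minutes. Over the following hours it leads to IL-2 production, expression of the high-affinity IL-2 receptor, growth through MYC and mTOR, and entry into the cell cycle, while the gene programme that keeps a naive T cell quiescent is turned down. The activated CD8 T cell then acquires cytotoxic granules and secretes inflammatory cytokines and chemokines.

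The deposited unit is the read count per gene. Levels are given as CPM, the count scaled to a common library size with trimmed-mean (TMM) factors. CPM is not corrected for gene length, so levels are compared between times for 1 gene and not between genes. Depth ran from 18002853 to 31919664 counts per library at 0 h and from 17815930 to 35476519 at 24 h, and mitochondrial transcripts took 1.58 to 2.26% and 1.26 to 1.96% of counts. The defining CD8 markers Cd8a, Cd8b1, Cd3e, Trac and 4 others were present in every library, with a summed level of 6710 to 7710 CPM at 0 h and 2980 to 4500 CPM at 24 h. Markers of B cells summed to 803 to 989 CPM at 0 h and 388 to 587 CPM at 24 h, and those of gamma delta T cells to 449 to 512 and 107 to 203 CPM. The monocyte, neutrophil, dendritic, NK and platelet lists each summed to at most 25.9 CPM, with 6, 8, 6, 8 and 6 of their 8 genes below 1 CPM on average at 0 h, and 7 haemoglobin and erythroid genes summed to 9.53 to 143 CPM at 0 h, with as wide a spread at 24 h. The CD4 and regulatory T cell list summed to 52.1 to 102 CPM at 0 h and 518 to 745 CPM at 24 h, and it holds Il2ra, Ctla4 and Tnfrsf4, which activated CD8 cells also express. The part of other cell types in the results below was not tested, and in bulk RNA fewer cells of a type cannot be told apart from less RNA per cell.

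Sh2b3 itself was measured first. Its level in the knockout was 12.0 ± 3.61 CPM at 0 h (SD, n = 6) and 11.3 ± 1.10 CPM at 24 h (SD, n = 5), against 84.3 ± 6.64 and 71.3 ± 6.30 CPM in wild type (n = 6 and 5). The lowest, median and highest knockout libraries at 0 h held 7.60, 11.7 and 16.7 CPM, and replicates 1 to 5 at 24 h held 11.2, 11.7, 9.46, 12.0 and 12.2 CPM. The library titled "KO" (replicate 4, 12.0 CPM) lay among the other knockout libraries. The 2 times overlapped, and the change did not pass edgeR's quasi-likelihood test (log2 -0.07, SE 0.21, adjusted p = 0.785).

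Of 13316 genes that passed the filter on low counts, 8036 (60.3%) were called at an adjusted p under 0.05 by edgeR's quasi-likelihood test, 4135 (31.1%) higher and 3901 (29.3%) lower at 24 h. A second call from the same fit asked for a change beyond 2-fold: 2187 genes (16.4%) passed, 1381 (10.4%) higher and 806 (6.05%) lower. Since most genes tested were called at the first threshold, the counts below for 33 gene lists are to be read against these shares. Times that did not overlap were common too. All 24 h libraries lay above the resting range for 23.2% of genes tested and below it for 20.1%. The median log2 change over all genes tested was -0.03, with quartiles at -0.67 and 0.66. It was -0.145 when libraries were scaled by their upper quartile in place of trimmed means, a shift that moves every gene alike. The plot of list medians gives each list in both library sets and each set alone.

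**Figure D1:**
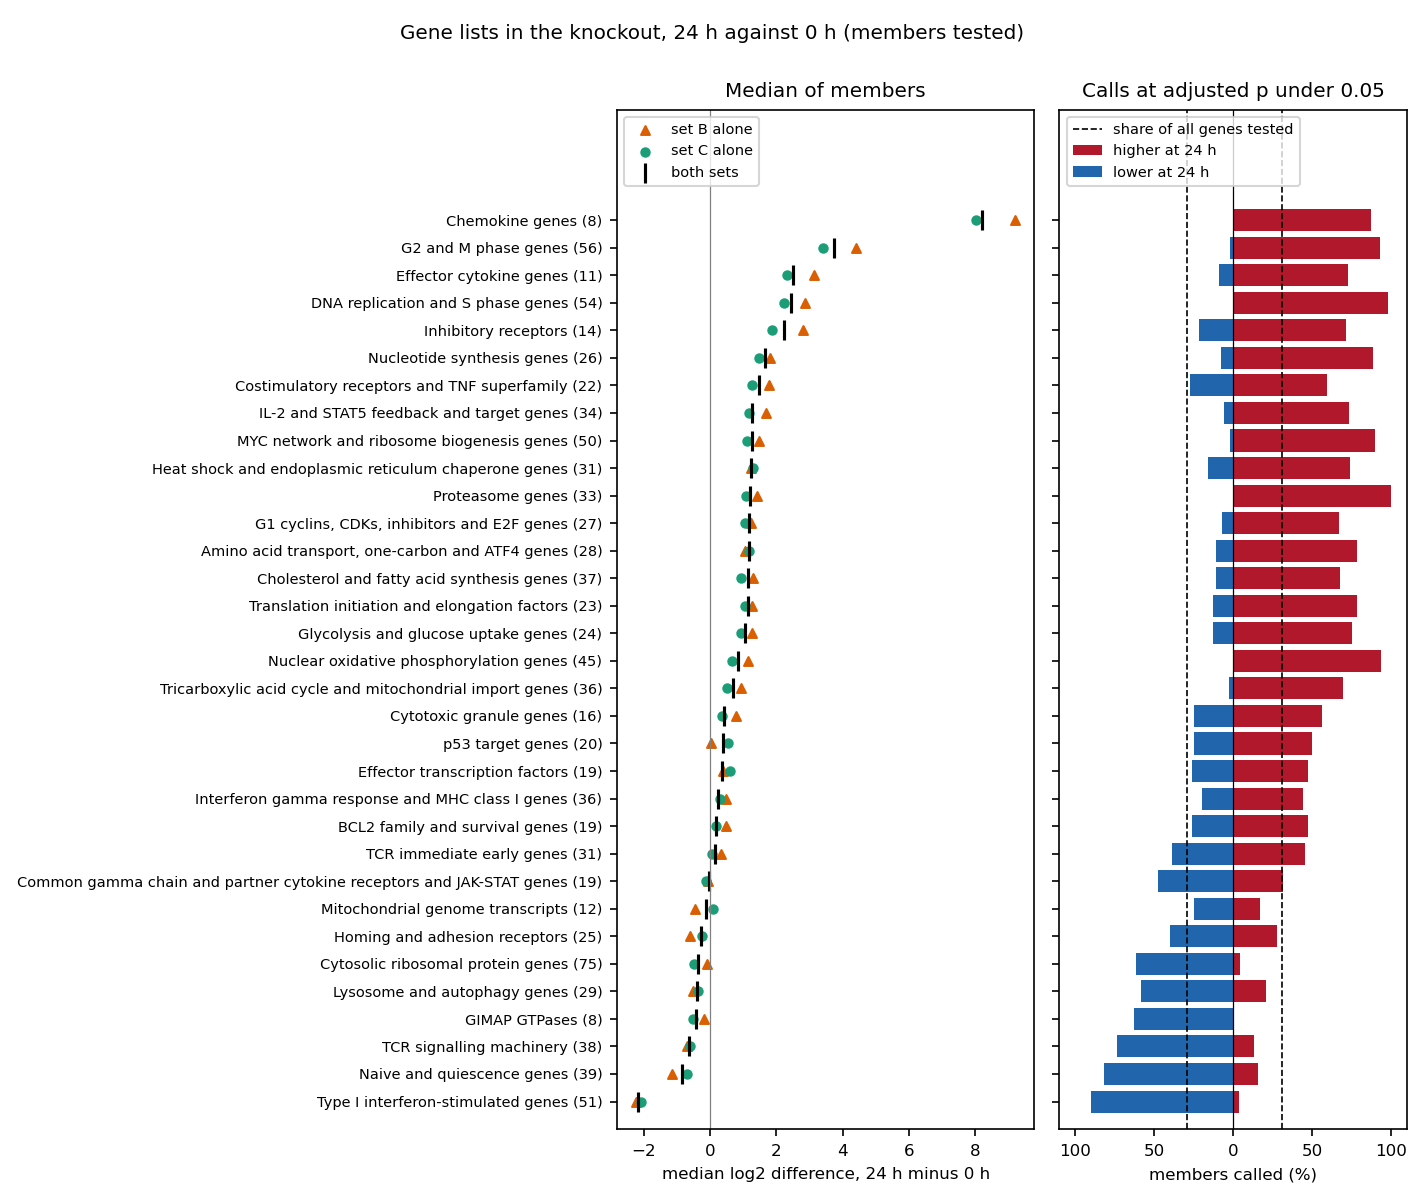
Median log2 change (24 h over 0 h) of each gene list in knockout cells, for both library sets together and for set B and set C alone, with the number of members tested in brackets (left), and the share of members called higher or lower at an adjusted p under 0.05, with dashed lines at the shares of all genes tested, 31.1% and 29.3% (right). Chemokine, G2 and M phase, effector cytokine and S phase genes stand at the top with medians of 8.21, 3.74, 2.51 and 2.44, and type I interferon-stimulated genes at the bottom with -2.16.

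Immediate early genes of T cell receptor signalling did not move one way at 24 h. Of 31 tested, 14 were higher and 12 lower (11 and 7 beyond 2-fold), with a median log2 change of 0.138. The zinc-finger factors and orphan nuclear receptors stayed above resting level. Egr2, which limits T cell activation, was at 5.15, 5.43 and 7.60 CPM (lowest, median, highest) at 0 h and at 113, 74.2, 100, 105 and 82.0 CPM at 24 h, a log2 change of 4.03 (SE 0.15, adjusted p = 5.4e-12). The times did not overlap, and the resting libraries lay within a narrow range. Egr3 rose by a log2 of 3.71 (SE 0.12) and the nuclear receptor Nr4a3 by 4.74 (SE 0.21). Egr1 rose by 1.14 (SE 0.16) and Nr4a1, whose promoter serves as a reporter of receptor signal strength, by 1.82 (SE 0.26). Irf4, the factor that scales the CD8 response with signal strength, went from 2.63 to 9.19 CPM at 0 h to 288 to 583 CPM (log2 6.12, SE 0.30).

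The AP-1 genes of the same list split. Of the 7 FOS and JUN family genes tested 4 fell and 3 rose. Fos was at 193, 569 and 828 CPM at 0 h (lowest, median, highest) and at 13.9, 12.9, 5.42, 7.26 and 6.50 CPM at 24 h (log2 -5.90, SE 0.33, adjusted p = 2.6e-09). Jun (-3.70, SE 0.34), Junb (-2.63, SE 0.28), Fosb (-5.04, SE 0.49) and the MAP kinase phosphatase gene Dusp1 (-4.26, SE 0.35) fell with it, and none of these overlapped between times. Fosl1, the gene of the FOS relative FRA1, had 4 counts in the 6 resting libraries and was at 1.96 to 5.55 CPM at 24 h, a pooled ratio of 145 (95% counting interval 56.1 to 533). Fosl2 rose by 0.70 (SE 0.12), a call not made in set B alone (adjusted p = 0.184). Jund rose by 0.48 (SE 0.18, adjusted p = 0.033), a call not made in set C alone (adjusted p = 0.24), with upper quartile scaling (0.0924), with no set term (0.149) or without any one of 0 h replicate 5 (0.0585) and 24 h replicates 1, 4 and 5 (0.0598, 0.0636 and 0.0717). Resting replicate 6 held the least of all 7 of Fos, Fosb, Jun, Junb, Dusp1, Egr1 and Nr4a1 among the 0 h libraries, with Fos at 193 CPM against 541 to 828 CPM in the other 5. Without it the calls for these 7 genes were made as before.

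IL-2 and STAT5 feedback and target genes rose together. Of 34 tested, 25 were higher and 2 lower (18 and 1 beyond 2-fold) with a median of 1.28 (set B 1.69, set C 1.18). Il2ra, the alpha chain of the IL-2 receptor, was at 1.13, 2.03 and 4.66 CPM at 0 h and at 462, 407, 463, 557 and 354 CPM at 24 h (log2 7.56, SE 0.30, adjusted p = 1.4e-10). Cish, a STAT5-induced suppressor of cytokine and T cell receptor signalling, was at 3.60, 4.08 and 5.54 CPM and at 96.6, 86.2, 106, 123 and 69.7 CPM (log2 4.48, SE 0.17, adjusted p = 6.3e-12). For both genes replicate 4 was the highest and replicate 5 the lowest stimulated library, and the times lay far apart. Socs2, another STAT5 target of the same suppressor family, was nearly silent at 0 h (0 to 0.165 CPM) and reached 12.4 to 24.8 CPM (log2 7.93, SE 0.47). Among the remaining leads, the survival gene Bcl2l1 rose by a log2 of 3.54 (SE 0.18), the cytokine gene Lif by 4.40 (SE 0.68), Socs1 by 1.61 (SE 0.14) and the kinase gene Pim1 by 0.62 (SE 0.14). Socs3, the family member tied mainly to gp130 cytokines, fell by 2.56 on the log2 scale (SE 0.25). The calls for Pim1 and Lif rest on how the sets are handled: with the set term removed the adjusted p of Pim1 was 0.113, and in set B alone (2 libraries against 2) that of Lif was 0.126.

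The receptors and kinases that carry these cytokine signals changed unevenly. Of 19 genes for the common gamma chain, its partner chains and JAK-STAT proteins, 6 were higher and 9 lower (2 and 0 beyond 2-fold). The median was -0.02 while the mean difference of the list was 0.557. Il2ra and the adaptor gene Sh2b2 were the 2 members called beyond 2-fold. Il2rb, the signalling beta chain shared by the IL-2 and IL-15 receptors, rose from 202 to 236 CPM to 409 to 554 CPM (log2 1.19, SE 0.10). Il2rg, the common gamma chain itself, fell by 0.28 on the log2 scale (SE 0.09, adjusted p = 0.0095), and in set C alone its adjusted p was 0.0948. Jak3, the kinase bound to that chain, fell by 1.10 (SE 0.17), with an adjusted p of 0.0629 in set B alone. Il7r, the IL-7 receptor chain of naive cells, did not pass the test (0.19, SE 0.26) and was spread at 24 h over 338, 706, 434, 168 and 360 CPM around the resting 289 to 482 CPM. Sh2b2, a close relative of Sh2b3 in the same adaptor family, had 3 counts in all at 0 h and 1.52 to 2.95 CPM at 24 h, a pooled ratio of 91.1 (95% counting interval 30.8 to 445).

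Cytotoxic granule genes split by member. Of 16 tested, 9 were higher and 4 lower (5 and 3 beyond 2-fold), median 0.421. Gzmb, the granule protease granzyme B, was at 0.163, 0.523 and 2.42 CPM at 0 h and at 868, 792, 862, 1913 and 339 CPM at 24 h (log2 10.24, SE 0.60, adjusted p = 3.9e-08). Replicates 4 and 5, the highest and the lowest at 24 h, are both of set B, and the times did not overlap. Serpinb9 (3.38, SE 0.16) and Serpinb6b (2.83, SE 0.17), which encode intracellular serpins, rose without overlap between times. Prf1, the pore-forming perforin, rose by 0.87 (SE 0.15), from 65.1 ± 10.4 CPM (SD, n = 6) to 118.6 ± 29 CPM (SD, n = 5).

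Effector cytokine genes were mostly higher: 8 of 11 rose and 1 fell (7 and 0 beyond 2-fold), median 2.51. Ifng was at 0.364, 1.54 and 3.71 CPM at 0 h and at 94.8, 103, 65.8, 296 and 28.5 CPM at 24 h (log2 6.12, SE 0.78, adjusted p = 9.7e-05). Both the highest and the lowest stimulated library were of set B, and the change in set B alone was 7.59 with an adjusted p of 0.0829. Il2, the T cell growth factor, had 4 counts in the 6 resting libraries and stood at 8.49, 7.37, 9.35, 8.02 and 4.27 CPM at 24 h, a pooled ratio of 245 (95% counting interval 95.4 to 902). The tumour necrosis factor family genes Tnf (2.28, SE 0.29), Lta (3.17, SE 0.25) and Tnfsf11 (7.15, SE 0.37), the gene of RANK ligand, rose without overlap between times.

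Chemokine genes had the highest median of the 33 lists. Of 8 tested, 7 were higher and 0 lower (6 beyond 2-fold), with a median of 8.21 that stayed at 8.21 with Ccl1 set at its lower bound. Xcl1, the ligand for the receptor of cross-presenting dendritic cells, was at 0, 0.301 and 0.462 CPM at 0 h and at 468, 356, 382, 692 and 495 CPM at 24 h (log2 10.62, SE 0.30, adjusted p = 2.0e-12). Ccl3 and Ccl4, which encode inflammatory chemokines, rose by 9.62 (SE 0.52) and 8.05 (SE 0.37), and Ccl9 by 8.36 (SE 0.57). Ccl1 had no count at 0 h and 6.73 to 19.2 CPM at 24 h, at least 590-fold higher when 3 counts over the 6 resting libraries are taken as the floor. Of these genes the plot by library shows Ccl3, beside genes of other lists.

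**Figure D2:**
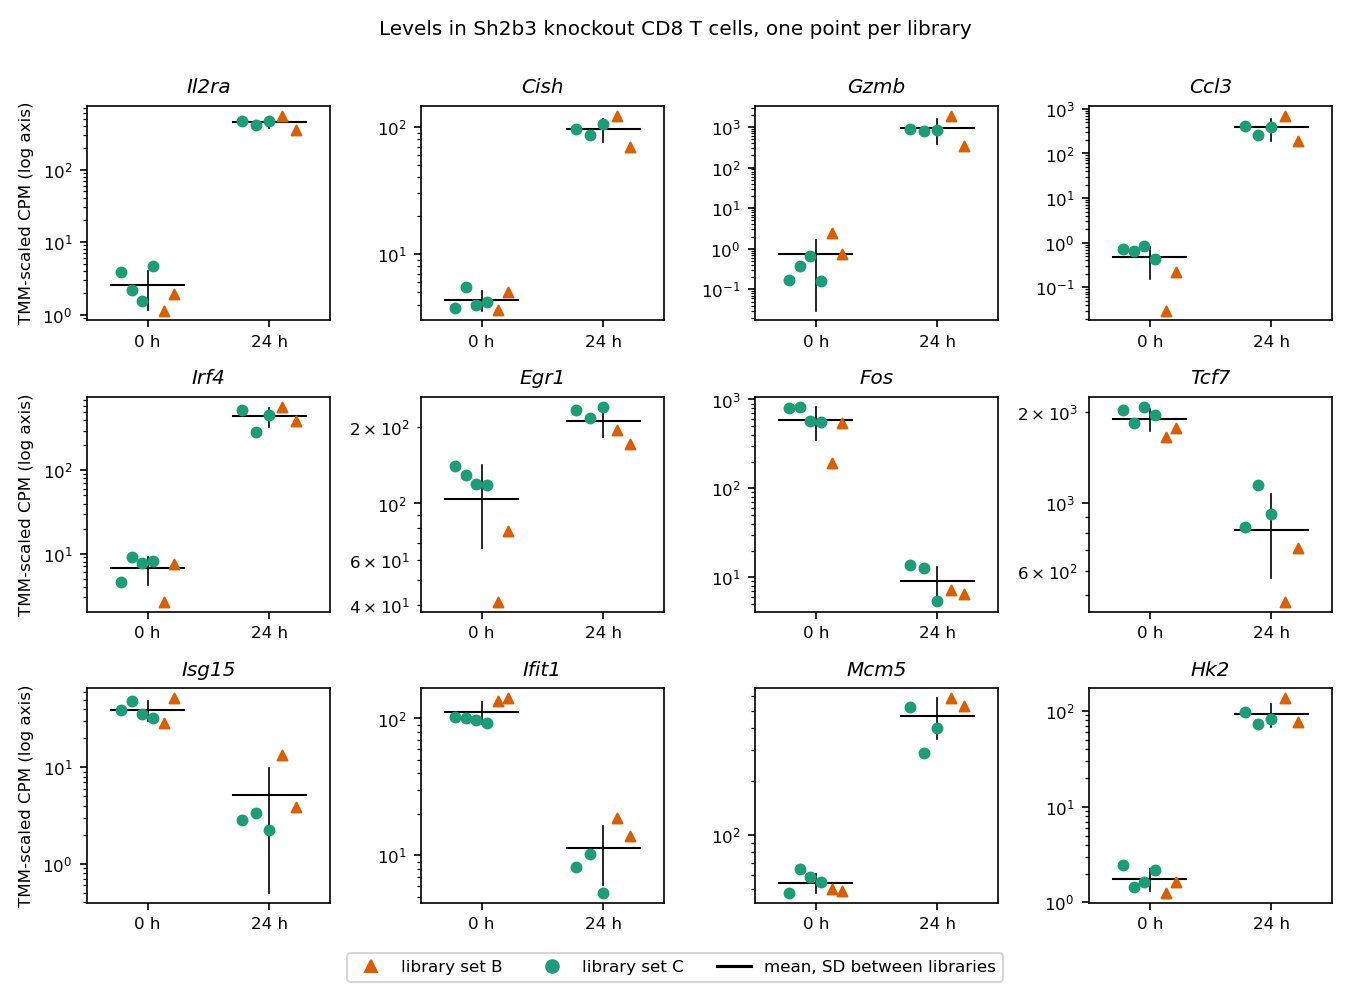
Level of 12 genes in each knockout library (CPM, log axis, 1 panel per gene), at 0 h (6 libraries) and 24 h (5 libraries), with the marker shape giving the library set and libraries without a count drawn at 0.03 CPM. Gzmb spans 0.163 to 2.42 CPM at 0 h and 339 to 1913 CPM at 24 h, and Fos moves the other way, from 193 to 828 CPM to 5.42 to 13.9 CPM.

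Receptors for homing and adhesion shifted in both directions. Of 25 tested, 7 were higher and 10 lower (4 and 2 beyond 2-fold), with a median of -0.28 and a mean of 0.06. S1pr1, which guides lymphocytes out of lymphoid organs, fell by 1.23 on the log2 scale (SE 0.27). Ccr7, a lymph node homing receptor, rose by 0.55 (SE 0.11), with an adjusted p of 0.129 in set B alone. Cd44, the adhesion receptor used to mark antigen-experienced cells, rose by 3.68 (SE 0.25), from 6.01 to 16.8 CPM to 82.2 to 149 CPM, and Ccr4 by 2.59 (SE 0.21). Cxcr3, the inflammatory chemokine receptor induced by T-bet, did not pass the test (0.16, SE 0.23).

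Costimulatory and inhibitory receptors rose side by side. Among 22 costimulatory and TNF superfamily genes, 13 were higher and 6 lower (12 and 1 beyond 2-fold), median 1.48. Tnfrsf9, the 4-1BB receptor found on recently activated T cells, was at 4.60, 5.72 and 9.34 CPM at 0 h and at 492, 371, 546, 522 and 360 CPM at 24 h (log2 6.20, SE 0.20, adjusted p = 2.3e-12). The costimulatory receptor genes Icos (2.00, SE 0.11) and Tnfrsf4 (2.84, SE 0.32), the gene of OX40, rose, as did the ligand gene Tnfsf14 (3.82, SE 0.20). Among 14 inhibitory receptor genes, 10 were higher and 3 lower (9 and 2 beyond 2-fold), median 2.22. Pdcd1, the gene of PD-1, was at 0.364, 1.23 and 1.73 CPM and at 79.9, 47.3, 80.3, 95.5 and 99.8 CPM (log2 6.17, SE 0.30, adjusted p = 2.4e-10). Lag3 (6.21, SE 0.32), Tigit (6.19, SE 0.33) and Ctla4 (2.74, SE 0.37) also rose without overlap between times.

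Effector transcription factor genes gave a median of 0.365: of 19 tested, 9 were higher and 5 lower (6 and 2 beyond 2-fold). Tbx21, which encodes T-bet, went from 5.67 ± 1.56 CPM (SD, n = 6) to 82.9 ± 30.7 CPM (SD, n = 5), a log2 change of 3.83 (SE 0.22, adjusted p = 7.3e-10). Irf8 was at 1.5, 4.72 and 6.02 CPM at 0 h and at 349, 303, 329, 594 and 305 CPM at 24 h (log2 6.45, SE 0.31), with replicate 4 above the rest. Eomes, the T-box gene linked to memory, rose by 1.05 (SE 0.24), but its 24 h values of 90.8, 99.7, 118, 125 and 33.6 CPM include 1 library below the resting range of 35.5 to 52.6 CPM, and its adjusted p was 0.257 in set B alone. Id2 (0.10, SE 0.11) and Prdm1, the gene of BLIMP-1 (0.27, SE 1.07), did not pass the test, and Prdm1 was under 1 CPM in 10 of the 11 libraries.

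The naive and quiescence programme fell. Of 39 genes, 32 were lower and 6 higher (8 and 0 beyond 2-fold), with a median of -0.85, -1.14 in set B and -0.69 in set C. Tcf7, which encodes TCF-1, the factor of naive and stem-like T cells, was at 1654, 1891 and 2075 CPM at 0 h and at 837, 1152, 918, 474 and 712 CPM at 24 h (log2 -1.21, SE 0.13, adjusted p = 8.4e-07). Lef1 (-1.06, SE 0.19), Klf2 (-1.58, SE 0.25), which drives S1pr1, and Foxo1 (-1.42, SE 0.12) fell as well. For Tcf7, Lef1, Klf2 and Foxo1 the 2 lowest stimulated libraries were those of set B. The steepest falls of the list were in Rasgrp2, an activator of the small GTPase RAP1 (-3.26, SE 0.17), and Tsc22d3, the gene of the glucocorticoid-induced protein GILZ (-2.30, SE 0.26). Foxp1 (0.48, SE 0.12) and Bach2 (1.14, SE 0.13), both known as guards of the naive state, rose instead, and the call for Foxp1 was not made in set B alone (adjusted p = 0.522).

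T cell receptor signalling genes were mostly lower too: 28 of 38 fell and 5 rose (6 and 0 beyond 2-fold), median -0.63. Cd3e, a subunit of the receptor complex, fell by 0.97 on the log2 scale (SE 0.12), from 735 to 895 CPM to 268 to 515 CPM. Cd8b1, the CD8 beta chain, fell by 1.56 (SE 0.14), and the kinase gene Lck by 0.76 (SE 0.10). Dgka, a diacylglycerol kinase that damps receptor signals, fell from 1562 to 1874 CPM to 305 to 610 CPM (log2 -1.82, SE 0.14). Zap70 did not pass the test (-0.18, SE 0.09). Of the 8 GIMAP GTPase genes, which support lymphocyte survival, 5 fell and 0 rose, with Gimap6 lowest at -1.20 (SE 0.13).

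Growth genes rose broadly. In the MYC and ribosome biogenesis list 45 of 50 genes were higher and 1 lower (26 and 0 beyond 2-fold), median 1.27. Myc was at 134.9, 177.5 and 234.8 CPM at 0 h and at 475, 398, 432, 535 and 389 CPM at 24 h (log2 1.32, SE 0.13, adjusted p = 1.8e-07). Odc1, a MYC target and the first enzyme of polyamine synthesis, went from 69.9 to 130 CPM to 552 to 979 CPM (log2 3.07, SE 0.17), and Ncl, the nucleolar protein nucleolin, rose by 2.00 (SE 0.13). Of 23 translation factor genes 18 were higher and 3 lower (10 and 0 beyond 2-fold), median 1.15, among them Eif5a (2.02, SE 0.12) and Eif4ebp1 (2.46, SE 0.20), the gene of an mTOR-controlled translation repressor. All 33 proteasome genes rose (17 beyond 2-fold), median 1.22.

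Genes for the ribosomal proteins themselves took a smaller share of the mRNA at 24 h. Of 75 tested, 46 were lower and 3 higher, none beyond 2-fold, with a median of -0.35, -0.10 in set B and -0.48 in set C. Rps6, a protein of the small subunit and a substrate of S6 kinase, was at 1257, 1669 and 2203 CPM at 0 h and at 1153, 957, 924, 1026 and 1068 CPM at 24 h (log2 -0.69, SE 0.14). Rpl3 fell by 0.35 (SE 0.12, adjusted p = 0.018), with overlap between times and an adjusted p of 0.0512 without 24 h replicate 2. Ribosomal protein genes have many processed pseudogenes, and how the authors' counting shared such reads is not given in the sources used here.

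Most metabolic lists were higher. Among 24 genes of glucose uptake and glycolysis 18 rose and 3 fell (11 and 0 beyond 2-fold), median 1.06. Hk2, the inducible hexokinase, was at 1.25, 1.64 and 2.48 CPM at 0 h and at 97.8, 73.7, 83.1, 136.8 and 77.3 CPM at 24 h (log2 5.73, SE 0.21, adjusted p = 5.4e-12). Tpi1, a glycolytic isomerase, rose by 2.72 (SE 0.16), Ldha, the gene of lactate dehydrogenase A, by 1.87 (SE 0.11), and the glucose transporter gene Slc2a1 by 0.76 (SE 0.13). Of 28 genes for amino acid transport, one-carbon metabolism and the ATF4 response, 22 were higher and 3 lower (13 and 2 beyond 2-fold), median 1.17. Its members Slc7a5, the large neutral amino acid transporter, and Psat1, of serine synthesis, rose by 2.08 (SE 0.12) and 2.85 (SE 0.12). Slc7a5, the large neutral amino acid transporter, rose by 2.08 (SE 0.12) and Psat1, of serine synthesis, by 2.85 (SE 0.12).

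Genes that make building blocks for DNA and membranes were higher as well. Of 26 nucleotide synthesis genes, 23 were higher and 2 lower (18 and 0 beyond 2-fold), median 1.67. Rrm2, the regulated subunit of ribonucleotide reductase, rose by 4.98 (SE 0.27), from 5.74 to 15.3 CPM to 172 to 439 CPM, and Tyms, of thymidylate synthesis, by 4.16 (SE 0.22). Of 37 cholesterol and fatty acid synthesis genes, 25 were higher and 4 lower (17 and 2 beyond 2-fold), median 1.15. The cholesterol synthesis enzyme genes Idi1 (3.72, SE 0.19), Cyp51 (3.58, SE 0.14) and Sqle (2.77, SE 0.18) rose, while Abca1, which exports cholesterol, fell by 2.87 (SE 0.25).

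Mitochondrial genes encoded in the nucleus rose in most members, with smaller medians. Of 45 oxidative phosphorylation genes 42 were higher and 0 lower, but 8 passed beyond 2-fold, median 0.833, with 1.14 in set B and 0.658 in set C. Cycs, the gene of cytochrome c, led with 2.06 (SE 0.15). Of 36 tricarboxylic acid cycle and import genes 25 were higher and 1 lower (11 and 0 beyond 2-fold), median 0.688, with the mitochondrial chaperone gene Hspd1 at 2.88 (SE 0.12). The 12 transcripts of the mitochondrial genome had 2 members higher and 3 lower and a median of -0.12, with a mean of 0.04. The sign of that median turned between the sets, -0.46 in set B and 0.10 in set C. Mt-Co1, a subunit of cytochrome oxidase, was lower at 24 h by 0.64 on the log2 scale (SE 0.14), with 4449 and 4468 CPM in the set B libraries and 6714 to 7628 CPM in set C.

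S phase and G2 and M phase genes rose in nearly every member, and G1 genes in 18 of 27. The S phase list had 53 of 54 genes higher and 0 lower (46 beyond 2-fold), median 2.44, and the G2 and M phase list 52 of 56 higher and 1 lower (49 and 0 beyond 2-fold), median 3.74. In the G1 and E2F list, besides the 18 that were higher, 2 were lower and 7 were not called (13 higher and 1 lower beyond 2-fold), median 1.18. E2f1, the transcription factor of S phase entry, rose by 3.62 (SE 0.20), from 4.0 to 6.45 CPM to 32.5 to 70.8 CPM. Mcm5, a subunit of the replicative helicase, was at 47.6, 52.0 and 64.6 CPM at 0 h and at 521, 288, 398, 588 and 528 CPM at 24 h (log2 3.09, SE 0.16, adjusted p = 2.0e-10). Cdk1, the kinase that starts mitosis, was at 0.563, 2.10 and 4.17 CPM and at 79.9, 46.3, 53.9, 148 and 95.5 CPM (log2 5.16, SE 0.36, adjusted p = 2.3e-08). In both genes replicate 2 was the lowest and replicate 4 the highest stimulated library, and no stimulated library came near the resting range. Ccnb1 (5.02, SE 0.28), Aurkb (5.68, SE 0.29) and the proliferation marker Mki67 (4.19, SE 0.26) rose alike. Of the brakes on G1, Cdkn1b, the gene of p27, did not pass the test (-0.42, SE 0.22), and Cdkn1a, the gene of p21, rose by 4.13 (SE 0.43).

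The promoters of these genes hold short motifs named in cell cycle control, shown here because the members of each list moved together. Windows of 250 bases before to 50 after each RefSeq start (GRCm38.p6) were searched on both strands. TTTGAA, the core of the cell cycle homology region, was in 72.9% of the 48 windows of 46 matched G2 and M phase genes, 12.4% of the 11942 windows of genes tested and 17.9% of all 32851 windows. CCAAT was in 70.8%, 38.0% and 37.4% of the same windows, and the E2F letters TTCGCGC or TTGGCGC in 36.0% of the 50 windows of 42 S phase genes against 6.90% and 3.89%. CACGTG, the E-box bound by MYC among others, was in 25% of the 48 windows of 43 MYC and ribosome biogenesis genes against 10.0% and 7.15%. The 33 windows of 25 cholesterol and fatty acid synthesis genes held no match to the 1 form of the sterol regulatory element searched, which was in 0.0419% of windows of genes tested, and CCAAT was in 63.6% of them. A match describes the letters in the window, not binding, and no match says only that these letters are not there. The window of Cdk1 (chr10:69352863-69353162, minus strand) is printed 5′ to 3′ with the 5 matches to CCAAT or TTTGAA in capitals, and that of Mcm5 (chr8:75109259-75109558, plus strand) with the 3 matches to the E2F letters, 2 of them overlapping, in capitals.
Cdk1: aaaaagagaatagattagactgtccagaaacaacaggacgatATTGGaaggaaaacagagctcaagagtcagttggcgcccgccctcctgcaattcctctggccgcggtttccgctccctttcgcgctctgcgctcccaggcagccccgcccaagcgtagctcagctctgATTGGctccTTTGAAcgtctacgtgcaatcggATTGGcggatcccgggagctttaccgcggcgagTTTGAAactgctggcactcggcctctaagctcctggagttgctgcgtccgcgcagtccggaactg
Mcm5: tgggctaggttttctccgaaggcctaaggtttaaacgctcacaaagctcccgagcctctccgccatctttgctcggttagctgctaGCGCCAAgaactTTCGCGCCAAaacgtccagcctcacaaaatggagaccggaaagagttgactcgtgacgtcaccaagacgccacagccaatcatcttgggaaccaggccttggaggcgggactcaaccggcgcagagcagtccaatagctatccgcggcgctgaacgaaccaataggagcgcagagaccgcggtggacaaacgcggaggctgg

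Type I interferon-stimulated genes had the lowest median of the 33 lists. Of 51 tested, 46 were lower and 2 higher (33 and 0 beyond 2-fold), with a median of -2.16, -2.23 in set B and -2.07 in set C. Isg15, a ubiquitin-like antiviral protein, was at 28.7, 37.5 and 52.3 CPM at 0 h and at 2.84, 3.39, 2.21, 13.4 and 3.90 CPM at 24 h (log2 -3.16, SE 0.37, adjusted p = 4.4e-06). Ifit1, which binds viral RNA, was at 92.4, 102 and 141 CPM and at 8.29, 10.2, 5.31, 18.6 and 13.8 CPM (log2 -3.42, SE 0.16, adjusted p = 9.7e-11). Replicate 4 was the highest stimulated library for both genes and still lay below the resting range. Slfn5 fell from 233 to 338 CPM to 4.77 to 9.10 CPM (log2 -5.30, SE 0.17) and Oas2, a sensor of double-stranded RNA, from 137.6 to 308 CPM to 0.443 to 5.62 CPM (log2 -6.25, SE 0.48). Stat2, a subunit of the type I interferon transcription factor, fell by 1.07 (SE 0.19).

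Interferon gamma and MHC class I genes, many of them induced by the other interferon as well, did not fall with them. Of 36 tested, 16 were higher and 7 lower (9 and 0 beyond 2-fold), median 0.252. Gbp2, a guanylate-binding GTPase, was at 97.8, 123 and 134.8 CPM at 0 h and at 724, 678, 842, 1115 and 1002 CPM at 24 h (log2 2.84, SE 0.13, adjusted p = 7.7e-11). Iigp1, another interferon-induced GTPase, rose by 2.28 (SE 0.25). Irf1 (0.23, SE 0.16) and the immunoproteasome gene Psmb8 (0.20, SE 0.11) did not pass the test. The core of the interferon-stimulated response element, GAAA and GAAA with any 2 bases between them, was in 42.6% of the 47 windows of 38 matched type I interferon-stimulated genes and in 41.9% of the 31 windows of 26 interferon gamma and MHC class I genes, against 3.11% of windows of genes tested and 3.44% of all. The windows of Isg15 (chr4:156200769-156201068, minus strand) and Ifit1 (chr19:34640639-34640938, plus strand) are printed 5′ to 3′ from the same RefSeq table (GRCm38.p6), with 3 overlapping matches in Isg15 and 2 matches in Ifit1 in capitals.
Isg15: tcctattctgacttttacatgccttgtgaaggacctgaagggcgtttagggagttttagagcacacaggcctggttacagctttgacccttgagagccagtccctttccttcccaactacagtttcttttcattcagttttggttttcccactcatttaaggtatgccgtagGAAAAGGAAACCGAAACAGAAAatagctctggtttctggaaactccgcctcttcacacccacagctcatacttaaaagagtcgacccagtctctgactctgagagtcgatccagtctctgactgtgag
Ifit1: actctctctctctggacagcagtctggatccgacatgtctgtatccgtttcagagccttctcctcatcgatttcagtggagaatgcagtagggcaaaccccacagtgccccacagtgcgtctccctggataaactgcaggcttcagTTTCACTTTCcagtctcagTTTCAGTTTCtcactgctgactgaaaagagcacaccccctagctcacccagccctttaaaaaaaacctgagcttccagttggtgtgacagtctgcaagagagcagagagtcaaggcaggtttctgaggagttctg

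**Figure D3:**
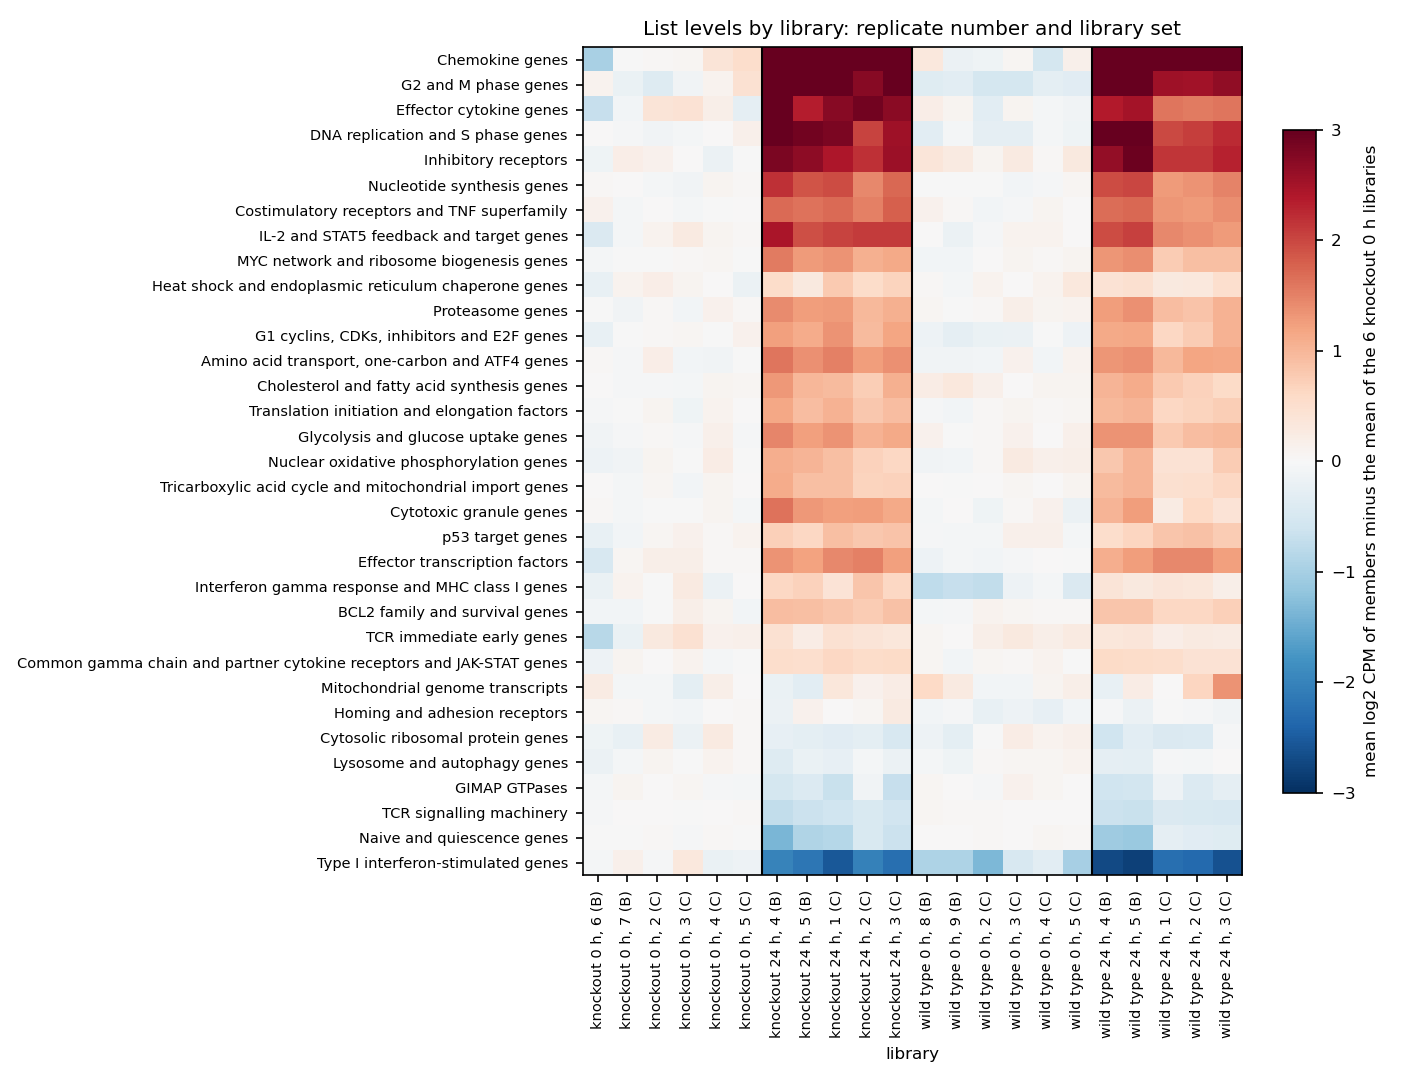
Mean log2 level of each gene list in every knockout library, as the difference from the mean of the 6 knockout libraries at 0 h (colour limited to 3 either way), with libraries of both genotypes ordered by time and set. The 5 stimulated knockout columns show the rise of S phase and G2 and M phase genes and the fall of type I interferon-stimulated genes, from 6.78 ± 0.193 to 4.57 ± 0.222 in mean log2 CPM (SD, n = 6 and 5).

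Survival and p53 lists were mixed, chaperone genes were mostly higher, and lysosome and autophagy genes were more often lower than higher. Of 19 BCL2 family and survival genes 9 were higher and 5 lower (5 and 0 beyond 2-fold). Bcl2, which protects naive cells, fell by 0.61 on the log2 scale (SE 0.12), and Bcl2l11, the gene of the killer protein BIM, rose by 1.35 (SE 0.12), beside the rise of Bcl2l1. Of 20 p53 target genes 10 were higher and 5 lower (5 and 1 beyond 2-fold), and Mdm2, the p53 antagonist, was lower by 0.34 on the log2 scale (SE 0.10), a call not made in set C alone (adjusted p = 0.128). Of 31 chaperone genes 23 were higher and 5 lower (16 and 3 beyond 2-fold), median 1.23, among them the endoplasmic reticulum chaperones Hspa5 (0.72, SE 0.14) and Hsp90b1 (1.61, SE 0.10) and Hsph1 (1.74, SE 0.12). The stress-induced gene Hspa1b stood apart: its resting libraries ranged from 11.7 to 373 CPM and its stimulated ones from 0.190 to 3.07 CPM (log2 -6.65, SE 1.34, adjusted p = 0.0023), with an adjusted p of 0.415 by limma voom with quality weights. Hspa1a behaved alike (-5.95, SE 1.48), with 2.06 to 99.2 CPM at 0 h. Of 29 lysosome and autophagy genes 6 were higher and 17 lower (1 and 1 beyond 2-fold), median -0.40. Map1lc3b, of the autophagosome membrane, fell by 0.99 on the log2 scale (SE 0.11) and its relative Gabarapl1 rose by 2.82 (SE 0.30).

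Outside the lists, the largest changes at 10 CPM or more were chosen by size from genes called beyond 2-fold. Pseudogenes and some other classes of gene were left out beforehand. On the way up they included Rgs16, a regulator of G protein signals, from 0.066 to 1.01 CPM at 0 h to 184, 100, 115, 204 and 170 CPM (log2 7.93, SE 0.33). Chst2, a sulfotransferase gene, went from 0.242 to 0.976 CPM to 76.7 to 172 CPM (7.90, SE 0.30) and Nrn1, which encodes neuritin, from 0 to 0.650 CPM to 13.4 to 57.7 CPM (7.92, SE 0.57). On the way down, the gamma-glutamyltransferase gene Ggt1 went from 89.7 to 143 CPM to 1.23 to 4.19 CPM (log2 -5.54, SE 0.22). Slc16a5 (-4.96, SE 0.14), of the monocarboxylate transporter family, and Ampd1 (-4.82, SE 0.25), an AMP deaminase, fell with little spread, and P2rx7, an ATP-gated channel, fell by 4.67 (SE 0.49). The same direction in both library sets was a condition of the choice and is not a result.

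The genotype-by-time test asked whether the 24 h change in the knockout differed from that in wild type. It was fitted on 22 libraries and 14427 genes. No gene was called by edgeR at an adjusted p under 0.05 (0 of 14427, 0%), and 1211 genes had an unadjusted p under 0.05. DESeq2 called 20 and limma voom with quality weights 0. The nearest genes, chosen after their values were seen, were Galnt3, Egr3 and Gpr174 (adjusted p = 0.0717 each). Galnt3, which starts mucin-type glycosylation, rose by a log2 of 8.96 in the knockout fit and by 5.71 in wild type (difference 3.25, SE 0.61). At 0 h it had 8 counts in all in the knockout libraries (0 to 0.132 CPM), against 0.242 to 1.02 CPM in wild type. At 24 h the genotypes overlapped, with 16.2 to 53.3 CPM in the knockout and 17.2 to 51.4 CPM in wild type. Its larger log2 change in the knockout thus goes with a lower resting level, set by few counts, and not with a higher level at 24 h. Egr3 rose by 3.71 and 2.87 (difference 0.85, SE 0.16), and the receptor gene Gpr174 by 0.35 and 0.97 (difference -0.63, SE 0.11). Wild-type cells had 7842 genes called (54.4%), 4016 higher (27.8%) and 3826 lower (26.5%), and 1829 beyond 2-fold (12.7%), 1161 higher (8.05%) and 668 lower (4.63%). Across the 14427 genes the 2 genotypes' changes gave Pearson's r = 0.872 and Spearman's rho = 0.876, a description only, since genes are not independent replicates and both changes were fitted in 1 model.

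The point estimates of the difference had a sign in common within several lists, although no member was called in the fit of both sets. Over all genes tested, 7634 of 14427 had the more upward change in the knockout, with a median difference of 0.02, 0.01 in set B and 0.04 in set C. In the IL-2 and STAT5 list 29 of 35 genes had the more upward change in the knockout, with a median difference of 0.284, 0.207 in set B and 0.486 in set C. For MYC and ribosome biogenesis it was 44 of 50 (median 0.249, with 0.079 and 0.403), for the proteasome 32 of 33 (0.190, with 0.0954 and 0.292), and for oxidative phosphorylation 42 of 45 (0.227, with 0.132 and 0.282). Type I interferon-stimulated genes differed downward in 46 of 51 (median -0.39, with -0.25 and -0.47). Their mean level at 0 h was 6.78 ± 0.193 log2 CPM in the knockout and 5.95 ± 0.374 in wild type, and at 24 h 4.57 ± 0.222 and 4.23 ± 0.234 (SD, n = 6 and 5 each). For the G2 and M phase list the median difference was -0.04. Other lists with a sign in common had almost no median difference in set B. Naive and quiescence genes differed downward in 37 of 39 (median -0.161, with -0.00136 in set B and -0.228 in set C). Nucleotide synthesis genes differed upward in 22 of 26 (0.238, with 0.00481 and 0.354) and translation factors in 18 of 23 (0.214, with 0.0038 and 0.317).

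**Figure D4:**
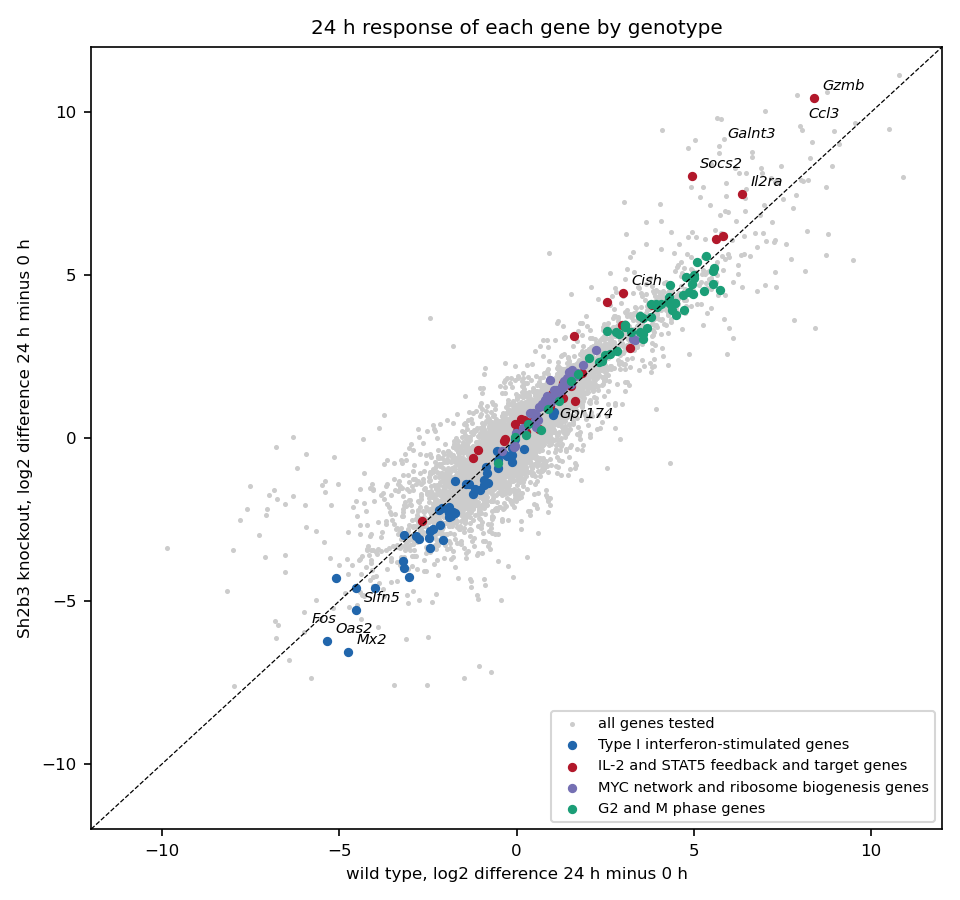
Log2 change (24 h over 0 h) of each gene in knockout cells (vertical) against wild type (horizontal), both from the fit of 22 libraries, with members of 4 lists in colour and a line of equal change. Most genes lie near the line. Gzmb and Cish lie above it, with differences of 2.04 (SE 1.16) and 1.46 (SE 0.46), neither called in that fit.

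Single genes show how far the sets bear on this comparison. Cish differed by a log2 of 1.46 between genotypes in edgeR's fit of both sets (adjusted p = 0.369). With edgeR in set C alone it differed by 2.52 (adjusted p = 3.8e-05), and in set B alone, where no gene was called, by 0.119. In wild type at 24 h it was at 14.3 to 23.5 CPM in the set C libraries and at 69.4 and 77.4 CPM in set B, while the knockout held 86.2 to 106 and 69.7 to 123 CPM. The set C libraries alone gave 113 genes called with the more upward change in the knockout and 43 with the more downward one, 1.07% of those tested. Of the 155 that could be compared, 106 had the same sign in set B. The share over all genes tested was not counted, so this number does not show that the sets agree. Lta was one with a similar size in both (1.74 in set C and 1.43 in set B). The part of the library set in these differences was not tested.

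Within the knockout, the 24 h change itself differed between the sets for 270 genes (2.03%) by the set-by-time test, 171 (1.28%) with the more upward change in set C and 99 (0.743%) in set B. Cxcr4, the receptor for CXCL12, fell by 3.22 on the log2 scale in set B, to 8.64 and 23.6 CPM at 24 h, and by 0.23 in set C, where it held 48.5 to 68.0 CPM. Calcrl and Trp53inp1 fell in set B (-1.53 and -1.42) and were higher in set C (0.59 and 0.29). In the other direction, the mitotic kinase gene Ttk rose by 7.82 in set B and 4.62 in set C, and the survival gene Bcl2a1b by 7.95 and 3.59. Of the 2187 genes called beyond 2-fold, 2165 had the same direction in both sets. Since these genes were called in the fit of both sets together, the choice itself favours a shared direction. The count of 270 rests on few libraries: it was 6 without 0 h replicate 6, 20 without 24 h replicate 4, 608 without 24 h replicate 1 and between 68 and 415 without each of the others.

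Libraries of the knockout at other times and with an IL-2 blocking antibody give the levels of the same genes in between, as a description with no test, since the libraries at 0 h, 2 h and 6 h (n = 5 each) and those with the antibody (n = 4) come from other sets than the 5 at 24 h. Under 1 scaling of all 60 libraries, Nr4a1 stood at 183 CPM at 0 h, 1770 at 2 h, 1060 at 6 h and 270 at 24 h (means), so its 24 h mean was below those at 2 h and 6 h. Fos went from 1210 to 114, 38.0 and 8.85 CPM, and Isg15 from 41.2 to 7.47, 3.79 and 4.89 CPM. Socs2 was at 0.393, 0.381 and 0.416 CPM through 6 h and at 16 CPM at 24 h, against 0.552 CPM in the 24 h libraries with anti-IL-2. With the antibody Cish stood at 8.40 CPM in place of 92.6, Gzmb at 46.4 in place of 914 and Il2ra at 202 in place of 431, while Mki67 was at 500 CPM in place of 334 and Mcm5 at 531 in place of 445.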

How the data were processed

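The members and gene lists were chosen with earlier results of these data known. The authors deposited 1 table of raw read counts per gene for 60 polyA libraries. Per the submitters' processing notes, FastQC 0.119.9, STAR 2.7.9a, SAMtools, Picard 2.42.2 and featureCounts 2.0.1 of Subread were used with GRCm39. Strandedness is not given in the sources used here. Of 55414 genes, the 52081 that a GENCODE M21 table named held 99.6% of counts, and 30138 had no count in the 11 libraries. The library set was read from the number in each library's title.

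Counts were fitted with edgeR 4.0.16 (R 4.3.3), filterByExpr with a minimum count of 10, TMM factors, robust quasi-likelihood and set as a term. Calls used Benjamini-Hochberg adjusted p under 0.05, and glmTreat for changes beyond 2-fold. Alternatives used DESeq2 1.42.0 and limma 3.58.1, other scalings and filters, each set alone and each library left out. The scripts were tested on simulated data. No 2 libraries were alike within sampling noise: the lowest ratio of chi-square to degrees of freedom between 2 libraries was 11.3. Named genes are the lead genes fixed per list, up to 2 further members with the largest change, and the 10 largest rises and falls. Of these, a selection is printed. Intervals and floors cover counting error only.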

Additional observations from a re-analysis of the deposited data

Results flagged for a closer look

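Each named gene's CPM was checked in both groups for a highest or lowest library set far apart from the rest (Dixon's test). Of 336 gene and group values 24 stood out (7.1%). Chance flags about 1 in 20 if values are normally distributed, which was not checked for these CPM, taken without logs. All but 1 of the 24 were the highest value of their group. Of these, 10 were the highest value at 0 h in replicate 6 (set B), the library with the least Fos and Jun: Egr2 at 7.60, Il7r at 482, Gzmb at 2.42, Ccr7 at 439, S1pr1 at 538, Cd44 at 16.8, Tnfsf14 at 5.78, Asns at 1.17, Zfp563 at 17.1 and Gpr174 at 84.8 CPM. At 24 h, 6 were the highest value in replicate 4 (set B, the library titled "KO"): Serpinb9 at 306, Serpinb6b at 166, Ifng at 296, Irf8 at 594, Asns at 31.4 and Isg15 at 13.4 CPM. At 0 h replicate 4 stood out for Il2 (0.132), Bcat1 (0.560) and Timm23 (40.6 CPM), replicate 2 for Lag3 (1.97), replicate 3 for Oas2 (308) and replicate 5 for Nrn1 (0.650 CPM). At 24 h replicate 2 stood out with the highest Prdm1 (2.28) and the lowest E2f1 (32.5 CPM).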

How the results depend on the processing

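The share of genes called at 24 h (60.3%) ranged from 55.5 to 60.2% when each library was left out and from 6197 to 8532 genes under the other 13 settings. The count beyond 2-fold (2187) ranged from 1976 to 2562 and from 1789 to 2607. Genotype by time, with 0 calls, gave 0 to 9 genes (0 to 0.0611%) when each library was left out, 9 without knockout 24 h replicate 5. It gave 0.00693% of genes tested (1 gene) with upper quartile scaling, 0.510% (141) with no filter on low counts, 0.139% (20) with DESeq2, 1.07% (113 higher and 43 lower) with set C alone and 0.113% (17) with all 11 resting libraries of each genotype. Set by time (270 genes) ranged from 6 to 608 (0.0459 to 4.48%) when each library was left out, and was 3.08% (778) with no filter and 6.12% (815) with DESeq2. The causes were not tested. Of 4027 gene values under alternatives 3951 kept direction and call. Those that changed sign are in 12 genes, none called in the fit of both sets. Il7r ranged from -0.0871 (without 24 h replicate 2) to 0.431 when each library was left out and was -0.60 in set B. Prdm1 ranged from -1.96 (without 24 h replicate 2) to 0.648 and was -1.85 with voom. Sh2b3 ranged from -0.212 to 0.0311 and was 0.23 in set B, Cxcr3 from -0.0071 to 0.336 with -0.0293 in set B, and Calcrl from -0.339 to 0.17 with 0.59 in set C. In set B Zap70 was at 0.0501. In set C Irf1 was at -0.0162, Phlda1 at -0.36, Id2 at -0.0329 (-0.0128 with upper quartile scaling), Trp53inp1 at 0.29, Rgmb at 0.32 and Zfp563 at 0.39. Numbers in the titles of 0 h and 24 h libraries differ by 20 within 5 pairs of each genotype, a regularity noticed after seeing the data that no label ties to a shared mouse. Deviations from the group means within these pairs correlated by -0.0286 to 0.0408 in the knockout and 0.011 to 0.0433 in wild type. With 2 libraries per group in set B the 2 deviations are exact opposites, so its pairs in a genotype share 1 value. Such correlations cannot tell whether a pair shares a mouse. The main fits did not take the libraries as paired. In 1 of 5 knockout pairs and 4 of 5 wild-type pairs the 24 h library correlated best with its own number. The mean log2 level of 5 erythroid genes had 1 order over the 5 knockout pairs at both times. It ran from 4.05 and 3.67 in the highest pair to -0.16 and -0.74 in the lowest. Over the 5 wild-type pairs of both sets together the order differed between times, but within each set it was the same. The wild-type pairs ran from 3.12 and 3.06 to 0.134 and 0.364 in set C. In set B they held 1.67 and 0.702, and 0.439 and -1.23. Whether pairs share a mouse was not tested and is not known. A replicate block by these numbers gave 7154 genes called, 1951 beyond 2-fold, 0 for genotype by time and 0.15% (20) for set by time, with Prdm1 at -0.452, Sh2b3 at 0.0729 and no call for Il2rg (adjusted p = 0.0542) or Rpl3 (0.0892). The median of 2 lists changed sign under some alternatives, the common gamma chain list (-0.13 to 0.0106) and the mitochondrial genome (-0.456 to 0.0971). Set B has 2 libraries at each time, which limits what it can call alone, and genes under 1 CPM at 0 h have changes set by a few counts.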
